A study of Mus musculus with 16 samples.

Results

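The response of control brain endothelium to stroke was measured by comparing bECs of CTRL mice that had undergone occlusion of the middle cerebral artery (MCAo) with bECs of CTRL mice after sham surgery. The comparison rested on the 4 CTRL MCAo and 4 CTRL sham samples, 8 of the 16 samples of the study, and ran across all 31085 genes that passed a filter on low counts, of 37003 genes in the table. The CTRL mice (Pdgfb-iCreERT2+/+:Yapfl/fl:Wwtr1fl/fl) carried floxed Yap and Wwtr1 alleles, and were the littermates without the inducible Cre recombinase that the YT-iKO mice (Pdgfb-iCreERT2+/-:Yapfl/fl:Wwtr1fl/fl) express in endothelial cells under the Pdgfb promoter. All mice had received tamoxifen. Occlusion lasted 30 min and was followed by reperfusion, and tissue was taken 72 hours after surgery, from mice of both sexes. By the study's methods the ischemic territory of the artery was dissected together with its counterpart on the other side of the brain. Whether a pool held cells of both sides is not given in the sources used here, so how far changes on the ischemic side are diluted cannot be told. Each sample was a pool of mice, so a pool is the unit of replication, and the sexes within a pool are not given in the sources used here. Living cells that carried the endothelial antigen CD31 and lacked the leukocyte antigen CD45 were sorted, and their RNA was amplified and sequenced. The ages of the mice are not given in the labels.

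Brain endothelial cells line the vessels of the brain and form the blood-brain barrier with tight junctions, low transcytosis and selective transporters. After ischemia the endothelium can take on an activated state, in which it shows selectins, chemokine-binding proteins and integrin ligands to leukocytes, secretes procoagulant and acute-phase proteins, and rebuilds its basement membrane. Activation of this kind is best known from postcapillary venules, whereas arterial endothelium is marked by Notch targets and by Alpl.

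The 8 samples held 12012438 to 19504260 counts, so that 1 count equalled 0.0569 to 0.0776 CPM (counts scaled to the library size) after TMM normalization. The sort was checked against endothelial markers: the summed level of 18 markers (Pecam1, Cdh5, Cldn5 and others) was 27500 to 29400 CPM after sham and 20600 to 35300 CPM after MCAo. Pan-leukocyte Ptprc stayed at 3.25 to 5.36 CPM after sham and 4.22 to 9.92 CPM after MCAo. None of the members of the 12 marker lists was called over all genes, and no marker was at 0 in all 8 samples. In the fit of abundant genes described later, the endothelial marker Pecam1, the pericyte marker Kcnj8 and the oligodendrocyte marker Cnp were higher and the smooth muscle marker Pln and the neuronal marker Stmn2 lower after MCAo. DESeq2, the receptor-share covariate and the CTRL samples alone each called 2 fibroblast markers and 1 astrocyte marker higher, and each called 1 neuronal marker lower. Pericyte markers called higher numbered 3 with the covariate, 1 with the CTRL samples alone and 4 with DESeq2 among abundant genes. The CTRL samples alone also called 1 smooth muscle and 1 ependymal or choroid plexus marker higher, and DESeq2 among abundant genes called 2 endothelial markers higher and 2 lower. Pericyte markers summed to 856 to 1090 CPM after sham and 1760, 1260, 661 and 901 CPM in CTRL MCAo 1 to 4. Fibroblast markers summed to 28.1 to 34.6 CPM after sham and 41.9 to 53.1 CPM after MCAo, without overlap, with Col1a2 the most abundant at a mean of 8.47 CPM. Among astrocyte markers, Gfap had 4.04 to 6.11 CPM after sham and 8.77 to 13.3 CPM after MCAo, while the sum of that list overlapped (123 to 137 against 116 to 136 CPM). Ttr, a choroid plexus transcript, had 10.2 to 23.3 CPM after sham and 64.7, 76.5, 67.4 and 9.25 CPM in CTRL MCAo 1 to 4. In sorted bulk RNA, a change in the share of a cell type and a change in RNA per cell cannot be told apart.

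The CTRL MCAo pools differed from each other more than the sham pools did. Olfactory, vomeronasal and taste receptor genes, which endothelial cells do not use, took 0.0528%, 0.165%, 0.198% and 0.0827% of counts in CTRL MCAo 1 to 4 and 0.0807% to 0.104% in the sham samples. The endothelial marker sum ran the other way, at 35300, 22700, 20600 and 32800 CPM in CTRL MCAo 1 to 4. Of the 57 genes that rose after MCAo, 51 had their highest MCAo value in CTRL MCAo 1 and 44 had their lowest in CTRL MCAo 3. Of the 10 genes that fell, 6 also had their highest MCAo value in CTRL MCAo 1. The spread within the MCAo group was therefore shared between genes. TMM factors were 0.743, 1.137, 1.231 and 0.852 in CTRL MCAo 1 to 4, and their part in this spread was not tested. With the receptor-gene share as a covariate, all 67 genes described next were called in the same direction.

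At an adjusted p under 0.1 by edgeR's quasi-likelihood test, 57 genes (0.183% of those tested) were higher and 10 genes (0.0322%) were lower after MCAo. All 67 had CTRL MCAo and CTRL sham samples that did not overlap, which held for 1288 of all genes tested (4.14%). The rising genes were raised 2.33-fold to 24.2-fold, with a median of 3.84-fold. They were protein-coding in 57 of 57 cases, with a median of 4.06 CPM in sham bECs against 1.84 CPM over all genes tested. The 10 falling genes had a median of 70.8 CPM after sham, and 7 of them were protein-coding. When each CTRL sample was left out in turn, 25 to 83 genes were called higher and 0 to 11 lower, and 23 of the 67 kept their call without any 1 of the 8 samples (among them Lrg1, Selp, Scgb3a1, Atp8b1, Ackr1, Ch25h, Cd14, Tnfsf8, Adamts4, Ifitm1, Synpo, Sele, Pdlim1, Ace, Socs3, Chst1, Sting1, Litaf, Cadm3, Apod, Rgs16 and Arhgap20). Of the 67, 29, 26, 36 and 50 were called without CTRL sham 1, 2, 3 and 4, and 40, 48, 59 and 27 without CTRL MCAo 1, 2, 3 and 4. In these fits 3 of the 67 were called in none of the 8, 11 in 1 and 6 in 2.

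**Figure D1:**
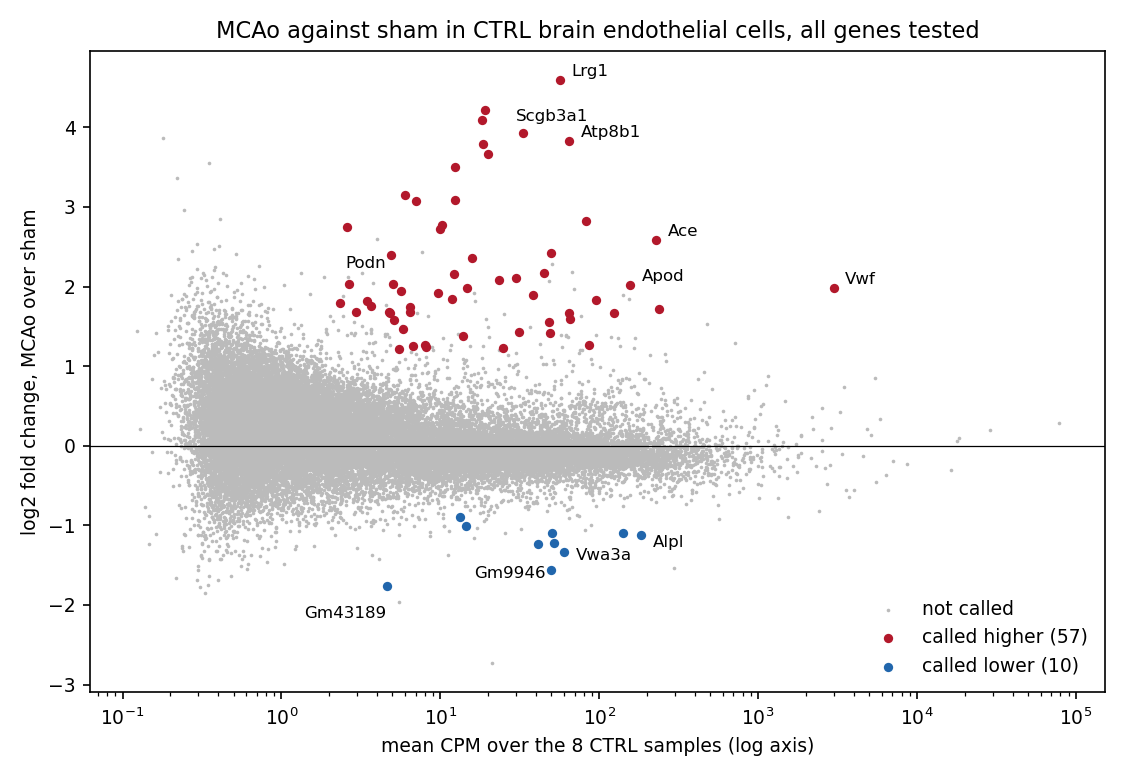
Log2 fold change of MCAo over sham in CTRL bECs (vertical axis) against the mean CPM over the 8 CTRL samples (horizontal log axis), 1 point a gene, with the 57 genes called higher in red and the 10 called lower in blue. The rising genes reach a log2 fold change of 4.59 (Lrg1), and the falling genes reach −1.76 (Gm43189).

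The number of calls depended on which genes were tested. Among the 9123 genes that averaged 10 CPM or more across all 16 samples, fitted and adjusted on their own, 623 (6.83%) were higher and 295 (3.23%) were lower after MCAo. The median change was 1.47-fold for the genes called higher and 1.33-fold for those called lower, and 102 of the rising and 7 of the falling genes moved at least 2-fold. Of the 623, 59 had less than 10 CPM in sham bECs and entered this fit through their level in other groups, as did Sting1, Lcn2, Map3k14, Casp4, Kit, Ifitm2, Emilin1, Col5a3, Col17a1 and Ednra among the genes named from this fit below, and the genes called over all genes that had less than 10 CPM after sham. Of the 8933 genes that also had at least 10 CPM after sham, 564 (6.31%) were higher, and where list members lay below that level after sham, counts of higher members are given without them or with their number. Of the 67 genes above, 44 were in this fit and all 44 were called in it. Of its 918 calls, 300 had CTRL MCAo and CTRL sham samples that did not overlap. That held for 4.14% of all 31085 genes tested, and the share over the 9123 genes alone is not given here. When 1 CTRL sample was left out, 523 (without CTRL MCAo 1) to 761 (without CTRL MCAo 3) of the 918 were still called, and 568 without CTRL sham 1, 595 without CTRL sham 2 and 602 without CTRL MCAo 4. The fit over all genes was skewed by level: the median log2 fold change was 0.28 for the 10669 genes with a mean under 1 CPM in the CTRL samples, 0.15 for the 11310 genes of 1 to 10 CPM and −0.09 for the 9106 genes at 10 CPM or more. In the fit of abundant genes the median was −0.0022. The medians of gene lists given for the fit over all genes are therefore to be read with the level of their members. Genes called among abundant genes alone are named below as higher or lower among abundant genes, with the values of the abundant-gene fit. They were chosen after their values were seen.

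The largest rises were in genes of different function. Lrg1, a secreted glycoprotein that modifies TGF-beta signalling in vessels (chromosome 17 of GRCm38, 56119678 to 56122001), had 3.89, 3.13, 2.95 and 7.86 CPM after sham and 188, 69.7, 48.2 and 126 CPM after MCAo. Its log2 fold change was 4.59 ± 0.59 (SE), and 4.23 to 5.01 when each CTRL sample was left out in turn. Selp, the P-selectin that captures rolling leukocytes, had 2.43, 1.42, 1.48 and 2.73 CPM after sham and 84.6, 14.3, 9.16 and 29.8 CPM after MCAo (4.09 ± 0.64, and 3.18 to 4.35 when each CTRL sample was left out). Both genes were highest in CTRL MCAo 1 and lowest in CTRL MCAo 3, and their groups did not overlap.

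Scgb3a1, a small secreted secretoglobin (chromosome 11, 49663610 to 49665118), had the lowest adjusted p of all genes (2.29e-05). It had 3.64, 4.79, 3.73 and 4.09 CPM after sham and 66.3, 49.5, 42.5 and 90.4 CPM after MCAo (log2 fold change 3.93 ± 0.38). The sham samples were tight, and even the lowest MCAo sample stood far above them. Atp8b1, a phospholipid flippase of the plasma membrane, rose from 9.58, 8.95, 7.23 and 8.25 CPM to 205, 81.6, 58.3 and 139 CPM (log2 fold change 3.83 ± 0.40, adjusted p = 5.54e-05). Synpo, an actin-binding protein, rose from 17.5, 18, 18.7 and 27.4 CPM to 230, 108, 78.5 and 165 CPM (log2 fold change 2.83 ± 0.40, adjusted p = 0.00131). Both genes were highest in CTRL MCAo 1 and lowest in CTRL MCAo 3, without overlap with sham.

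Ackr1, the atypical receptor that carries chemokines across venular endothelium (chromosome 1, 173331886 to 173333750), had 2.94, 1.94, 2.02 and 2.99 CPM after sham and 66.4, 24.2, 11.2 and 36 CPM after MCAo (log2 fold change 3.80 ± 0.55, adjusted p = 0.00166). Its exons share 361 of 1405 bases with Cadm3, a cell adhesion molecule that was also called (2.15 ± 0.29, adjusted p = 0.00109). The strand setting of the counting is not given in the sources used here, so reads in the shared stretch cannot be assigned to either gene. Ch25h, which makes the oxysterol 25-hydroxycholesterol, had 3.89, 2.05, 2.18 and 3.44 CPM after sham and 74.2, 26, 13.2 and 34.2 CPM after MCAo (3.67 ± 0.56, adjusted p = 0.00292). Cd14, the co-receptor for lipopolysaccharide, had 1.79, 1.77, 2.56 and 1.88 CPM after sham and 43.8, 13.4, 10.7 and 22.7 CPM after MCAo (3.50 ± 0.52, adjusted p = 0.0022). All 3 genes had their lowest MCAo value, 10.7 to 13.2 CPM, in CTRL MCAo 3.

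Tnfsf8, the ligand of the TNF receptor family member CD30, rose from 1.15, 0.912, 1.94 and 0.845 CPM to 14.4, 11.9, 6.99 and 9.44 CPM (3.15 ± 0.41, adjusted p = 0.000885). Adamts4, a protease that cuts proteoglycans such as aggrecan and versican, had 1.15, 2.51, 2.49 and 4.22 CPM after sham and 34, 15.8, 12.9 and 25.7 CPM after MCAo (3.09 ± 0.51, adjusted p = 0.00744). Ifitm1, an interferon-inducible membrane protein, had 1.66, 1.25, 1.79 and 1.30 CPM after sham and 18.4, 13.2, 5.36 and 13.5 CPM after MCAo (3.07 ± 0.41, adjusted p = 0.00106). All 3 genes were low in every sham pool, and none had an MCAo pool within the sham range.

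The genes that fell did so by less. Mmp15, a membrane-bound matrix metalloproteinase, fell from 63.6, 73.7, 64.8 and 88.5 CPM to 36.4, 22, 36.6 and 30 CPM (log2 fold change −1.22 ± 0.26, adjusted p = 0.0669). Alpl, the tissue-nonspecific alkaline phosphatase of arterial and capillary endothelium, fell from 264, 236, 267 and 245 CPM to 154, 87.5, 115 and 108 CPM (−1.12 ± 0.24, adjusted p = 0.0739). Col14a1, a collagen that associates with fibrils, fell from 71.7, 65.5, 70.5 and 68.2 CPM to 40.4, 27.9, 35.7 and 25 CPM (−1.10 ± 0.23, adjusted p = 0.0496). In each of these genes the highest MCAo pool stayed well below the lowest sham pool.

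Rad54b, a DNA repair helicase, fell from 66.8, 70.6, 54.9 and 38.8 CPM to 28.6, 17.5, 21.2 and 30.7 CPM (−1.24 ± 0.26, adjusted p = 0.0501), and 2075 of its 5782 exon bases are shared with Fsbp and Gm11832. Plekhh2, a protein with pleckstrin homology domains, fell from 219, 177, 191 and 187 CPM to 120, 78.2, 66.3 and 97.2 CPM (−1.10 ± 0.24, adjusted p = 0.0749). Grhl1, a transcription factor of the grainyhead family, fell from 15.2, 15.6, 17.3 and 20.7 CPM to 8.49, 9.78, 8.88 and 9.82 CPM (−0.89 ± 0.20, adjusted p = 0.0997). The groups of Grhl1 were tight on both sides, and the difference was the smallest among all called genes.

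The other 4 falling genes were Gm43189, Gm9946, Vwa3a and Gm16070. Gm43189 had 8.36, 5.64, 10 and 4.61 CPM after sham and 2.28, 1.58, 3.12 and 1.45 CPM after MCAo, and Gm9946 had 89.6, 65.1, 76.3 and 64.4 CPM after sham and 36.5, 20.7, 25.4 and 17.4 CPM after MCAo. Vwa3a, a gene with von Willebrand factor A domains, had 93.7, 83.5, 92.7 and 74.8 CPM after sham and 42.5, 28, 33.4 and 32.2 CPM after MCAo. Gm16070, which shares exon bases with Crispld1, fell from 21.5, 18.1, 19.6 and 18.2 CPM to 12.4, 10.1, 9.02 and 7.11 CPM (−1.0 ± 0.21, adjusted p = 0.065). Gm9946 kept its call in 7 and Vwa3a in 4 of the 8 fits that left out 1 CTRL sample, the other 8 falling genes in 0 to 2, and all 10 stayed lower in all 8 fits.

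**Figure D2:**
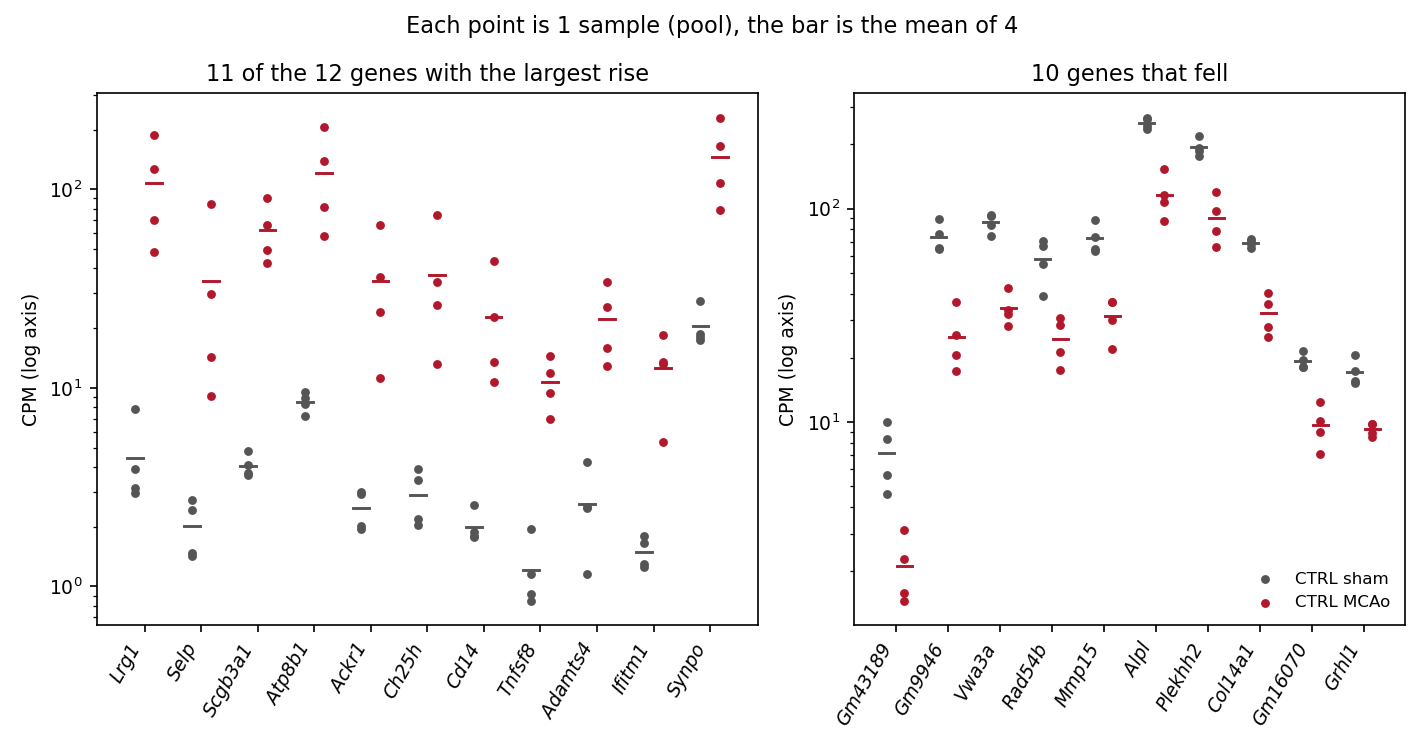
CPM (log axes) in each of the 4 CTRL sham (grey) and 4 CTRL MCAo (red) samples for 11 of the 12 genes with the largest rise (left) and the 10 genes that fell (right), with bars at the means. No sham sample overlaps an MCAo sample, and Synpo runs from 17.5 to 27.4 CPM after sham and from 78.5 to 230 CPM after MCAo.

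Promoter sequence was read for the called genes, since several of them are textbook targets of NF-kappaB, AP-1 and STAT3. RefSeq windows on GRCm38.p6 (250 bases before to 50 after the start) were given for 44 of the 67. They were searched on both strands for TTCNNNGAA (STAT), GGNNNTTCC (kappaB), TGANTCA (AP-1) and GGAATG (TEAD). Of the 38 rising genes with a window, 5 held the STAT letters (13.2%, against 9.55% of all genes with a window), 11 the kappaB letters (28.9% against 20.7%), 6 the AP-1 letters (15.8% against 8.97%) and 8 the TEAD letters (21.1% against 16.6%). In windows counted singly, the shares over the whole table were 8.30%, 18.5%, 7.81% and 14.7%. Of the 6 falling genes with a window, none held the STAT or AP-1 letters, 2 held the kappaB letters and 2 the TEAD letters. Windows of both endothelial selectins and of the 2 acute-phase genes called over all genes are printed 5′ to 3′, with STAT, kappaB and AP-1 letters in capitals.
Sele promoter, chr1:164047984-164048283, plus strand: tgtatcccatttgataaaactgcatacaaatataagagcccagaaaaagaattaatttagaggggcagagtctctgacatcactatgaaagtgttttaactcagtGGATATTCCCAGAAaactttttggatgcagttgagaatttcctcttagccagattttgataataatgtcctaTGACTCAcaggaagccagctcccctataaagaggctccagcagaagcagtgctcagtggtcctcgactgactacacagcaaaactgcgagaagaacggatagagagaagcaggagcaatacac
Selp promoter, chr1:164115014-164115313, plus strand: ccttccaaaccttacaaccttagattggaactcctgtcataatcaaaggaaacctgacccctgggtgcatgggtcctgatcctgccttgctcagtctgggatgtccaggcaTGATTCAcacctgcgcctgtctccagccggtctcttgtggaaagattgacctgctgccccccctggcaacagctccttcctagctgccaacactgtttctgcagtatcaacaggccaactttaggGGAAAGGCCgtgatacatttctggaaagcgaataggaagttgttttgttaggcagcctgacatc
Lrg1 promoter, chr17:56121897-56122196, minus strand: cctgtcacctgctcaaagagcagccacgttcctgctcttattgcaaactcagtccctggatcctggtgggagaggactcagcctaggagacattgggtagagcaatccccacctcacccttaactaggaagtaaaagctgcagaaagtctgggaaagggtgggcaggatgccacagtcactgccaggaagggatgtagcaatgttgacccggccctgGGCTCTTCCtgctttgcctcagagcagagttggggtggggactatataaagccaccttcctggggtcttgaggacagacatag
Socs3 promoter, chr11:117969317-117969616, minus strand: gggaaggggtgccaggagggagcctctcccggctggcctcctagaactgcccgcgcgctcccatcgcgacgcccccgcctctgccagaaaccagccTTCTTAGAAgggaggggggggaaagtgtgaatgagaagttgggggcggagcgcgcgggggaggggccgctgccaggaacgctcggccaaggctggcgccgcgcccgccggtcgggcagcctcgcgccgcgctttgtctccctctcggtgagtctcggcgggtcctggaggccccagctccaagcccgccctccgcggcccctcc
In the Sele window the kappaB match begins 145 bases and the STAT match 140 bases before the start, so the pair overlaps, and the AP-1 match begins 73 bases before it. The Selp window held AP-1 letters 139 bases and kappaB letters 14 bases before the start. Lrg1 held kappaB letters 33 bases before the start, and Socs3 held STAT letters 154 bases before it. A match in these windows is a description of the letters, not of binding.

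Of 18 leukocyte adhesion molecules tested, 3 were called higher (Selp, Sele and Ackr1) and none lower, where 0.183% of all genes tested were higher. The median log2 fold change was 0.34 against 0.07 over all genes. Sele, the E-selectin whose promoter is printed above, rose from 2.63 ± 0.53 to 18 ± 12.7 CPM (SD, n = 4; log2 fold change 2.77 ± 0.44 SE, adjusted p = 0.00503). Of 12 abundant members with at least 10 CPM after sham, 6 were higher, against 6.31% of all such genes, and no abundant member was lower. This list and those below were written with earlier results of these data known. Their shares of called members are therefore descriptions and test no enrichment. Mcam (CD146), an adhesion molecule of the endothelial junction, rose from 30.7 ± 4.81 to 95.6 ± 42.9 CPM (1.67 ± 0.29, adjusted p = 0.00206). Of the integrin ligands, Icam1 rose by 0.64 ± 0.18 (adjusted p = 0.0423) and Vcam1 by 0.51 ± 0.12 (0.0166), with samples that overlapped, while Icam2 had 101 and 85.1 CPM and was not called, nor was Madcam1, at under 1 CPM. Podxl (0.43 ± 0.12), F11r (0.42 ± 0.11) and Pecam1 (0.30 ± 0.10) were also higher among abundant genes, and Esam, the third most abundant of those not called over all genes, had 617 and 608 CPM. Monocyte and neutrophil markers summed to 8.24 to 13.2 CPM after sham and 6.77 to 21.8 CPM after MCAo, and their part in these rises was not tested.

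Of 22 chemokine genes none was called over all genes (median log2 fold change 0.42), and 20 of them had a mean under 10 CPM. Cxcl1, the third most abundant, had 2.37 CPM after sham and 4.75 CPM after MCAo. The 2 abundant members fell, where 3.23% of all abundant genes were lower. Cxcl12, the chemokine that endothelium displays at rest and in arteries, went from 3082 ± 158 to 1745 ± 360 CPM (−0.73 ± 0.13, adjusted p = 0.00318). Cx3cl1, fractalkine, went from 120 ± 17.5 to 78.9 ± 16.8 CPM (−0.51 ± 0.14, adjusted p = 0.0431).

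Acute-phase and STAT3-linked genes had a median of 0.57 over all genes, with 29 of 30 members above 0 and 13 of the 30 under 10 CPM. The median among abundant genes was 0.56. It included Lrg1, Lcn2, Serpina3n and Cish, which had less than 10 CPM after sham and entered that fit through other groups, so no shift is read from it. Over all genes 2 were called, Lrg1 and Socs3, both higher, where 0.183% of all genes tested were higher. Socs3, the feedback inhibitor of STAT3 signalling, rose from 15.6 ± 1.84 to 83.6 ± 42.3 CPM (log2 fold change 2.42 ± 0.39, adjusted p = 0.00516). Of 14 abundant members with at least 10 CPM after sham, 9 were higher, against 6.31% of all such genes, and 1 was lower. The signal-transducing chain of the IL-6 family, Il6st, rose by 0.74 ± 0.15 (adjusted p = 0.00554), its partners Osmr by 0.52 ± 0.10 (0.00548) and Il6ra by 0.57 ± 0.09 (0.000649), and Stat3 by 0.54 ± 0.09 (0.00221). Lifr, another partner of Il6st, fell by 0.35 (SE 0.11, adjusted p = 0.0612). The NF-kappaB cofactor Bcl3 rose by 1.00 ± 0.11 (4.25e-05), Bcl6 by 0.89 ± 0.12, Il4ra by 1.20 ± 0.28 and the ferroxidase Cp by 0.36 ± 0.12. Lcn2, a siderophore-binding acute-phase protein, went from 9.66 ± 1.77 to 29.2 ± 9.53 CPM (1.65 ± 0.38, adjusted p = 0.0152).

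Innate receptors and NF-kappaB regulators gave 4 called genes of 32, all higher, where 0.183% of all genes tested were higher (median 0.34). Tlr4, the lipopolysaccharide receptor that pairs with CD14, went from 4.69 ± 0.51 to 11.3 ± 3.99 CPM (1.26 ± 0.25, adjusted p = 0.0396), and Litaf, a lysosomal membrane protein induced by lipopolysaccharide, from 16.4 ± 1.69 to 74 ± 30.7 CPM (2.17 ± 0.36, adjusted p = 0.00713). Cd14 and Tnfsf8 were the other two. Tlr4 kept its call in 4 of the 8 fits without 1 CTRL sample (adjusted p up to 0.29). Of 21 abundant members with at least 10 CPM after sham, 9 were higher, against 6.31% of all such genes, and no abundant member was lower. The genes higher in that fit were, among others, the TNF receptors Tnfrsf1a (1.12 ± 0.17, adjusted p = 0.000802) and Tnfrsf1b (0.84 ± 0.14), the adaptor Myd88 (0.82 ± 0.14), Ier3 (1.27 ± 0.21), Traf1 (0.91 ± 0.19), Relb (0.41 ± 0.10) and Nfkb2 (0.32 ± 0.10). The inflammatory caspase Casp4 (1.33 ± 0.18) and Map3k14 (0.72 ± 0.16) were called higher too. They had 6.83 and 9.96 CPM after sham, entered the fit through other groups and are not among the 9. Nfkbiz rose by 0.69 ± 0.17. Other members were not called in either fit: Nfkbia had 238 and 222 CPM, Nfkb1 163 and 177 CPM, and Rela 108 and 111 CPM after sham and MCAo. Traf2 (26 and 27 CPM), Birc2 (67 and 66 CPM) and Birc3 (46 and 52 CPM) were not called either. Branches of NF-kappaB signalling were not tested as groups.

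Receptors for interleukins and colony-stimulating factors gave 3 called genes of 22, all higher, where 0.183% of all genes tested were higher (median 0.36). Of 11 abundant members with at least 10 CPM after sham, 3 were higher, against 6.31% of all such genes. Il17ra, the common receptor chain for IL-17, rose from 26.6 ± 2.52 to 70.8 ± 27.8 CPM (1.41 ± 0.31, adjusted p = 0.0847), Il18rap from 2.29 ± 0.41 to 7.32 ± 1.58 CPM (1.67 ± 0.37, 0.0884) and Csf2rb from 3.06 ± 0.30 to 9.86 ± 5.23 CPM (1.69 ± 0.37, 0.0926). Csf2rb has a near-identical neighbour, Csf2rb2, between which the counting could divide reads. Of the 8 fits that left out 1 CTRL sample, Il18rap was called in 0 and Il17ra and Csf2rb in 1 each, with an adjusted p of up to 0.275, 0.386 and 0.431. Among abundant genes Il1r1 (0.72 ± 0.17) and Csf1 (0.38 ± 0.12) were higher as well. Kit (1.95 ± 0.43) was called higher there too, but had 6.75 CPM after sham and entered that fit through other groups. The interferon receptor chains Ifnar1 (598 and 508 CPM) and Ifnar2 (143 and 124 CPM) were not called.

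In the cGAS-STING and interferon list 2 of 34 genes were called, both higher, where 0.183% of all genes tested were higher (median 0.10). Sting1, the adaptor for cytosolic DNA sensing, rose from 5.18 ± 0.63 to 26.7 ± 9.05 CPM (2.36 ± 0.33, adjusted p = 0.00126) and Ifitm1 rose as given above. Of 28 abundant members with at least 10 CPM after sham, 2 were higher, a share near the 6.31% of all such genes. The genes higher among abundant ones were Sting1, Ifitm3 (0.91 ± 0.17), Ifitm2 (0.67 ± 0.21) and Dhx58 (0.58 ± 0.19). Of these, Sting1 and Ifitm2 had less than 10 CPM after sham and entered that fit through other groups. The abundant interferon-stimulated genes Gbp3 (260 and 244 CPM), Trim25 (234 and 218 CPM) and Oasl2 (187 and 209 CPM) were not called. None of 18 MHC class I genes was called in either fit (median −0.06), with 954 and 857 CPM for H2-D1, 648 and 594 CPM for B2m and 479 and 502 CPM for H2-K1.

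Complement components and regulators had a median of 0.56, with 12 of 18 under 10 CPM. Of the 18, 3 were called higher, where 0.183% of all genes tested were. Among 6 abundant members with at least 10 CPM after sham, 2 were higher, against 6.31% of all such genes. C4b rose from 14.8 ± 4.23 to 34.8 ± 4.07 CPM (1.23 ± 0.24, adjusted p = 0.0331), the protease C1ra from 3.97 ± 0.92 to 9.43 ± 2.54 CPM (1.25 ± 0.28, 0.0939) and the inhibitor Cfi from 1.39 ± 0.32 to 4.47 ± 1.34 CPM (1.69 ± 0.36, 0.0601). When 1 CTRL sample was left out, C1ra and Cfi kept their call in 1 of 8 fits each (adjusted p up to 0.478 and 0.362) and C4b in 4 (up to 0.235). The membrane proteins Cd93 (612 and 766 CPM) and Cd59a (69.5 and 58.5 CPM) were not called.

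Coagulation and fibrinolysis genes gave 2 called genes of 27, both higher, where 0.183% of all genes tested were higher (median 0.38). Vwf, the platelet-tethering protein stored with P-selectin in Weibel-Palade bodies, was the most abundant called gene and went from 1207 ± 182 to 4776 ± 1969 CPM (1.98 ± 0.38, adjusted p = 0.0281). Without CTRL MCAo 4, CTRL sham 1 or CTRL sham 2 its call was lost, at an adjusted p of up to 0.235, with a log2 fold change of 1.80 to 2.13 over the 8 fits that left out 1 CTRL sample. Of 13 abundant members with at least 10 CPM after sham, 6 were higher, against 6.31% of all such genes, and no abundant member was lower. They included anticoagulants: Tfpi (0.79 ± 0.16, adjusted p = 0.00571), Procr (0.64 ± 0.19) and Pros1 (0.42 ± 0.09). Itgb3 rose by 0.91 ± 0.23 and Anxa2 by 0.38 ± 0.12. Plat, the tissue plasminogen activator, had 340 and 230 CPM (log2 fold change over all genes −0.57 ± 0.31) and the anticoagulant receptor Thbd had 263 and 247 CPM, and neither was called.

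Matrix and basement membrane genes gave 3 genes called higher and 1 lower of 44 (median 0.42), where 0.183% of all genes tested were higher and 0.0322% lower. Mgp, matrix Gla protein, rose from 41.9 ± 8.85 to 149 ± 79.1 CPM (1.83 ± 0.39, adjusted p = 0.0709), Tnc, tenascin C, from 2.55 ± 0.42 to 7.63 ± 2.95 CPM (1.57 ± 0.32, 0.0464) and Podn, podocan, from 1.98 ± 0.10 to 8.12 ± 1.51 CPM (2.03 ± 0.36, 0.0154). Col14a1 was the gene called lower. In the 8 fits without 1 CTRL sample Mgp and Tnc kept their calls in 3 each, Podn in 6 and Col14a1 in 2 (adjusted p up to 0.389, 0.193, 0.113 and 0.319). Of 28 abundant members with at least 10 CPM after sham, 11 were higher, against 6.31% of all such genes, and 3 abundant members were lower. The basement membrane chains Lamb1 (1.69 ± 0.33, adjusted p = 0.00506), Nid1 (0.98 ± 0.16), Col4a1 (0.61 ± 0.20), Col4a2 (0.56 ± 0.19), Lamc1 (0.43 ± 0.11) and Lama4 (0.41 ± 0.14) rose. The basement membrane proteins Hspg2 (1415 and 1409 CPM), Agrn (1069 and 1043 CPM), Lamb2 (744 and 727 CPM), Lama5 (756 and 640 CPM) and Nid2 (91.8 and 78.1 CPM) were not called. Fibronectin, Fn1, went from 3894 ± 409 to 7031 ± 2170 CPM (0.92 ± 0.11, adjusted p = 9.71e-05). Ecm1 (1.39 ± 0.28), Bgn (1.34 ± 0.27) and Sparcl1 (0.56 ± 0.08) rose too. Emilin1 (1.86 ± 0.45), Col5a3 (1.32 ± 0.35) and Col17a1 (1.19 ± 0.37) were also called higher, but had less than 10 CPM after sham and entered the fit through other groups. Ltbp4, which binds latent TGF-beta, fell from 1995 ± 182 to 1070 ± 179 CPM (−0.79 ± 0.13, adjusted p = 0.00161) and Hmcn1 from 1242 ± 122 to 787 ± 155 CPM (−0.56 ± 0.14). The fibroblast marker sum also stood higher after MCAo, at 41.9 to 53.1 CPM against 28.1 to 34.6 CPM, and the pericyte marker sum overlapped between the groups, at 856 to 1090 CPM after sham and 661 to 1760 CPM after MCAo. Pdgfrb, a receptor that marks pericytes, had 63.5, 60.6, 70.6 and 94.1 CPM after sham and 171, 131, 60.5 and 93.9 CPM after MCAo. The median log2 fold change of the pericyte markers was 0.39 over all genes and 0.53 among abundant genes. The part of fibroblasts and pericytes in the rise of matrix genes was not tested.

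Proteases that act on matrix moved in both directions (32 tested, 3 called higher, 1 lower, median 0.09). Of all genes tested, 0.183% were called higher and 0.0322% lower. Beside Adamts4, its relative Adamts8 rose from 1.68 ± 0.25 to 5.66 ± 2.18 CPM (1.75 ± 0.34, adjusted p = 0.0355) and the lysosomal endopeptidase Lgmn from 16.3 ± 2.20 to 60.8 ± 27.8 CPM (1.90 ± 0.40, 0.0581), whereas Mmp15 fell. Adamts8 kept its call in 4, Lgmn in 3 and Mmp15 in 1 of the 8 fits without 1 CTRL sample. Of 16 abundant members with at least 10 CPM after sham, 2 were higher, against 6.31% of all such genes. Of 17 abundant members 3 were lower, against 3.23% of all abundant genes. Among abundant genes Adamts9 was higher (1.38 ± 0.31), and Prss23 (−1.02 ± 0.14, adjusted p = 0.000365) and Htra1 (−0.49 ± 0.12) were lower. Timp3 (510 and 404 CPM), Adam10 (301 and 344 CPM) and Adam15 (279 and 238 CPM) were not called.

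In TGF-beta and BMP signalling 1 of 39 genes was called (median 0.02): Grem1, a secreted BMP antagonist, rose from 1.05 ± 0.38 to 4.31 ± 1.34 CPM (2.03 ± 0.46, adjusted p = 0.0997), a call kept in 1 of the 8 fits that left out a CTRL sample (adjusted p up to 0.412). Of all genes tested 0.183% were called higher. Among abundant genes Smad1 (0.96 ± 0.11, adjusted p = 4.93e-05), Lrrc32 (1.07 ± 0.18), Smad5 (0.31 ± 0.10) and Tgfbr3 (0.28 ± 0.09) were higher, and Tgfb2 (−0.68 ± 0.23) and Smad9 (−0.57 ± 0.17) were lower. These were 4 and 2 of 26 abundant members, where 6.83% of all abundant genes were higher and 3.23% lower. The receptors Bmpr2 (1375 and 1335 CPM), Eng (1240 and 1206 CPM) and Acvrl1 (658 and 605 CPM) were not called. None of 40 VEGF, angiopoietin and tip-cell genes was called over all genes (median 0.00). Among 31 abundant ones 4 were higher, Adm (1.10 ± 0.25), Mcam, Lama4 and Flt4 (0.28 ± 0.09). Unc5b and Hey1 were the 2 lower. Again 6.83% of all abundant genes were higher and 3.23% lower. The VEGF receptors Flt1 (7208 and 5583 CPM) and Kdr (1390 and 1113 CPM) and the angiopoietin receptor Tek (1080 and 1024 CPM) were not called in either fit. Cell cycle genes had a median of 0.34 with none of 41 called, 29 above and 12 below 0, and 25 of them under 10 CPM. DESeq2 called 2 of them higher, the receptor-share covariate 6 and the CTRL samples alone 5, where these fits called 175, 541 and 387 of all genes higher. The covariate and the CTRL samples alone each called 1 lower. Among 16 abundant ones 2 were higher, Cdk6 (0.74 ± 0.16) and Cdk2 (0.27 ± 0.09), and 1 lower, Ccnd1 (−0.62 ± 0.19), against the same shares of all abundant genes. Cdkn1b (105 and 95.8 CPM), Ccnd3 (107 and 93.8 CPM) and Cdkn1a (79 and 55.2 CPM) were not called.

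**Figure D3:**
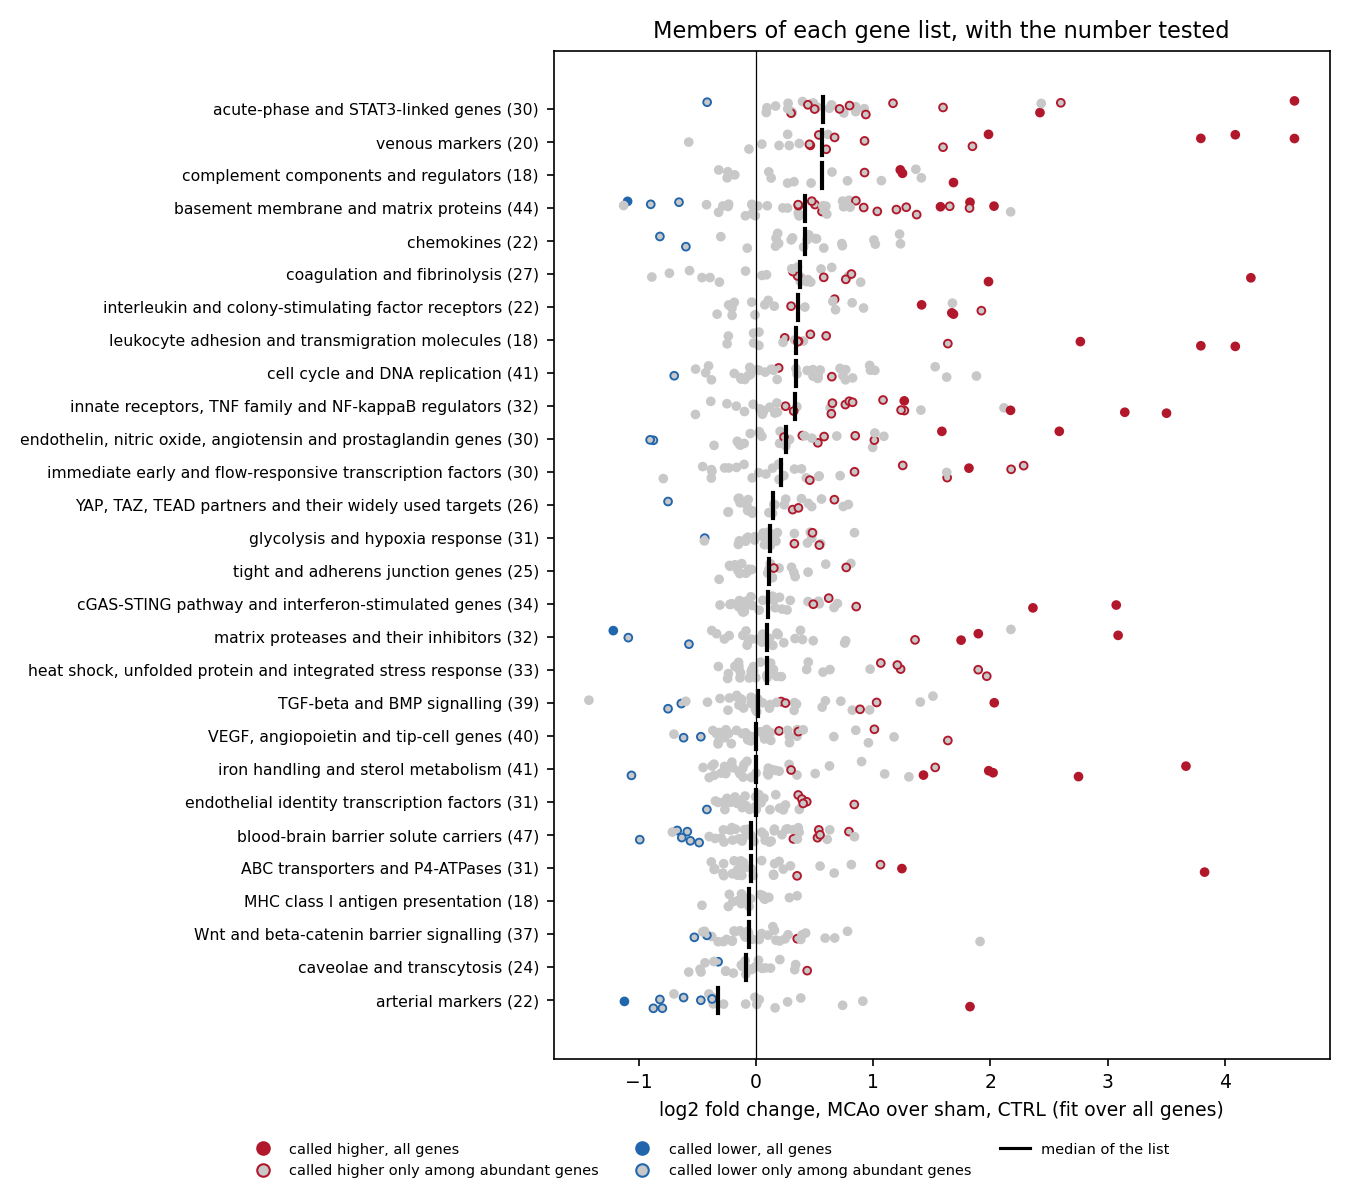
Log2 fold change of MCAo over sham in CTRL bECs for the tested members of 28 gene lists (1 point a gene), sorted by the list's median (black bar). Filled red and blue points were called over all genes, outlined points were called among abundant genes alone. The medians run from −0.32 for arterial markers to 0.57 for acute-phase and STAT3-linked genes.

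Among immediate early and flow-responsive genes 1 of 30 was called, where 0.183% of all genes tested were higher. The phosphatase Dusp2 rose from 1.51 ± 0.21 to 5.37 ± 2.49 CPM (1.82 ± 0.37, adjusted p = 0.0431), a call kept in 2 of the 8 fits without 1 CTRL sample. Among abundant genes 6 of 24 were higher, where 6.83% of all abundant genes were, and none lower: the AP-1 subunits Fosb (2.19 ± 0.57), Fos (2.09 ± 0.65), Junb (1.62 ± 0.29) and Fosl2 (0.88 ± 0.14), the RNA-binding protein Zfp36l2 (1.30 ± 0.14, adjusted p = 3.71e-05) and Klf10 (0.53 ± 0.16). Fos had 38.5, 25.8, 14.2 and 19.4 CPM after sham and 258, 23, 44.8 and 117 CPM after MCAo, so its groups overlapped through CTRL MCAo 2. The flow-responsive factors Klf2 (508 and 452 CPM) and Klf4 (379 and 291 CPM), and Jun (231 and 302 CPM), were not called. Stress genes had none of 33 called over all genes (median 0.09). Among 24 abundant ones 5 were higher, where 6.83% of all abundant genes were. They were the heat shock proteins Hspa1a (2.00 ± 0.46) and Hspa1b (1.93 ± 0.52), which are near-identical copies, the unfolded protein response factor Xbp1 (1.26 ± 0.18, adjusted p = 0.000365), Gadd45g (1.22 ± 0.28) and Ddit4 (1.10 ± 0.37). The constitutive chaperones Hsp90ab1 (1099 and 993 CPM), Hspa8 (823 and 845 CPM) and Calr (303 and 256 CPM) were not called.

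Of 31 endothelial identity factors none was called over all genes (median −0.0032). Among 29 abundant ones, 5 were higher and 1 lower, where 6.83% of all abundant genes were higher and 3.23% lower. Hif1a (0.90 ± 0.10, adjusted p = 4.25e-05), Hhex (0.51 ± 0.13), Ppard (0.48 ± 0.13), Elk3 (0.45 ± 0.11) and Etv6 (0.43 ± 0.09) were higher, and Lef1 (−0.33 ± 0.11, adjusted p = 0.0901) was lower. Epas1 (4740 and 4353 CPM) and Ets1 (571 and 598 CPM) were not called. Wnt and beta-catenin barrier signalling had none of 37 called over all genes (median −0.06). Among 23 abundant ones 2 were lower, the pathway targets Axin2 (−0.45 ± 0.13, adjusted p = 0.0444) and Lef1, and 1 higher, Tcf7l1 (0.43 ± 0.13). The shares of all abundant genes were again 3.23% lower and 6.83% higher. Apcdd1 (664 and 788 CPM) and Ctnnb1 (845 and 747 CPM) were not called.

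Junction and transcytosis genes gave 2 calls each in the fit of abundant genes, where 623 and 295 of all 9123 genes were called. Of 25 tight and adherens junction genes none was called over all genes (median 0.11), and among 19 abundant ones Nectin2 (0.84 ± 0.18) and Cdh2 (0.25 ± 0.08) were higher. Cldn5, the main claudin of the barrier, had 1235 and 1415 CPM, Tjp1 1788 and 1946 CPM, and Ptprb 4878 and 5375 CPM. Of 24 caveolae and transcytosis genes none was called over all genes (median −0.09), and among 23 abundant ones Cavin3 was higher (0.51 ± 0.15) and Dnm2 lower (−0.24 ± 0.07). Cavin1 (752 and 749 CPM), Igf1r (2504 and 2093 CPM) and Tfrc (809 and 676 CPM) were not called.

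Of 47 solute carriers none was called over all genes (median −0.04). Among 36 abundant ones, 35 of them with at least 10 CPM after sham, 5 were higher and 6 lower, where 6.83% of all abundant genes were higher and 3.23% lower. Those that fell included the organic anion transporter Slc22a8 (634 ± 59.4 to 409 ± 62.8 CPM, −0.53 ± 0.13, adjusted p = 0.0204), the thiamine transporter Slc19a3 (260 ± 26.1 to 163 ± 25.7 CPM, −0.57 ± 0.13, 0.0149), the taurine transporter Slc6a6 (3184 ± 325 to 2274 ± 864 CPM, −0.44 ± 0.11, 0.0247) and Slc26a10 (119 ± 6.07 to 59.8 ± 18.4 CPM, −0.91 ± 0.14, 0.00105). The glutamate transporter Slc1a1 (−0.47 ± 0.11) and Slc9a3r2 (−0.49 ± 0.12), a scaffold protein, fell as well. Those that rose were Slc12a7 (0.84 ± 0.15), Slco2b1 (0.62 ± 0.11), Slc12a2 (0.59 ± 0.13), Slc38a5 (0.58 ± 0.18) and Slc31a1 (0.38 ± 0.10). The glucose transporter Slc2a1 (2654 and 3094 CPM) and Slco1a4 (2893 and 2394 CPM) were not called.

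Of 31 ABC transporters and P4-ATPases, Atp8b1 and Abcb1b were called, both higher, where 0.183% of all genes tested were higher (median −0.04). Abcb1b, 1 of 2 mouse genes for P-glycoprotein, rose from 4.82 ± 1.21 to 11.4 ± 2.48 CPM (1.25 ± 0.26, adjusted p = 0.0496) with its call kept in 2 of the 8 fits without 1 CTRL sample, while Abcb1a, the form that dominated in these cells, had 2265 and 2031 CPM and was not called. The cholesterol exporters Abca1 (1.10 ± 0.21, adjusted p = 0.00479) and Abcg1 (0.42 ± 0.13) were higher among abundant genes. They were 2 of 23 abundant members with at least 10 CPM after sham, against 6.31% of all such genes. Atp10a (944 and 737 CPM) and Abcc4 (961 and 835 CPM) were not called.

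Over all genes, arterial markers had the lowest median of the 28 lists and venous markers the second highest, and among abundant genes their medians were −0.29 and 0.61. The 0.61 included Ackr1, Selp, Lrg1 and Lcn2, which had less than 10 CPM after sham and entered the fit through other groups. No shift is therefore read from it. Of 22 arterial markers 1 was called higher (Mgp) and 1 lower (Alpl) over all genes, with a median of −0.32, where 0.183% of all genes tested were higher and 0.0322% lower. Among 20 abundant ones, 19 of them with at least 10 CPM after sham, 7 were lower, where 3.23% of all abundant genes were lower, and 1 higher. The Notch ligand Jag2 (−0.30 ± 0.09, adjusted p = 0.0468), the Notch target Hey1 (−0.39 ± 0.13, 0.0963) and the netrin receptor Unc5b (−0.54 ± 0.11, 0.00743) fell, as did Edn3 (93.3 ± 17 to 50.8 ± 16.6 CPM, −0.80 ± 0.16, 0.00645), Stmn2 (−0.72 ± 0.24, 0.0926), Cxcl12 and Alpl. Stmn2 is also a neuronal marker, and the neuronal marker sum was 99 to 126 CPM after sham and 82.3 to 99.9 CPM after MCAo; its part in the fall of Stmn2 was not tested. Sox17 had 349 and 288 CPM and was not called. Of 20 venous markers 4 were called higher (Lrg1, Selp, Ackr1 and Vwf) and none lower, with a median of 0.57, where 0.183% of all genes tested were higher. Of 14 abundant ones with at least 10 CPM after sham, 8 were higher, against 6.31% of all such genes, and no abundant one was lower. Tmem252 rose from 66.6 ± 18.5 to 240 ± 106 CPM (1.89 ± 0.32, adjusted p = 0.00186), and Tmsb10 rose by 0.53 ± 0.13. The venous identity genes Ephb4 (297 and 340 CPM) and Nrp2 (219 and 265 CPM) were not called. The venous list shares Lrg1, Lcn2, Selp, Ackr1, Icam1, Vcam1, Il1r1, Vwf and Slc38a5, among others, with the inflammatory and other lists above, and the shares of arterial and venous cells in the pools were not measured.

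**Figure D4:**
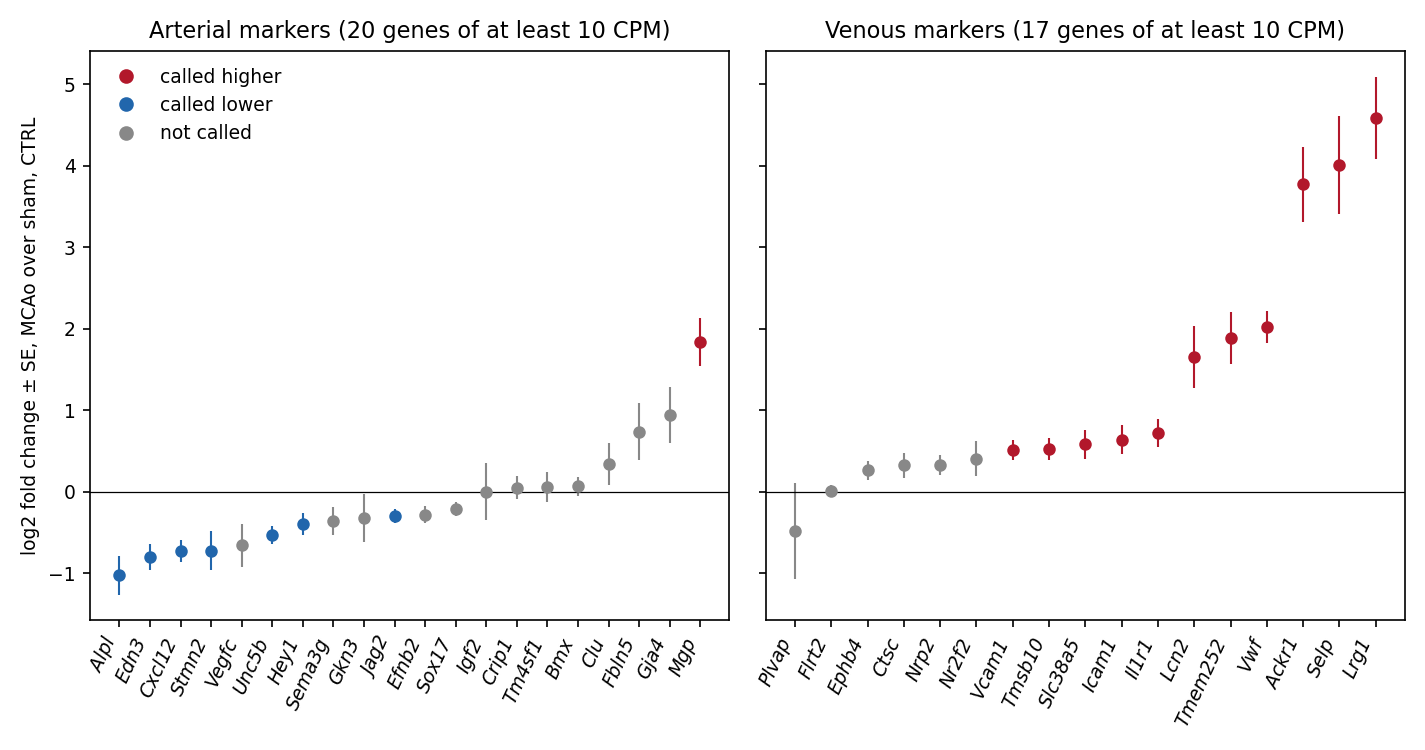
Log2 fold change ± SE of MCAo over sham in CTRL bECs for arterial (left, 20 genes) and venous (right, 17 of 18 genes) markers, from the fit among abundant genes, with genes called higher in red, lower in blue and not called in grey. Of the arterial markers 7 lie below 0 as called genes and 1 above, and of the venous markers drawn 11 lie above 0 as called genes, of which Ackr1, Selp, Lrg1 and Lcn2 had less than 10 CPM after sham.

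Vasoactive genes gave 2 called genes of 30, both higher, where 0.183% of all genes tested were higher (median 0.26). Ace, angiotensin-converting enzyme, rose from 65.1 ± 4.91 to 391 ± 185 CPM (2.59 ± 0.44, adjusted p = 0.00935) and Ptgs2, cyclooxygenase-2, from 32.7 ± 3.33 to 98 ± 49.3 CPM (1.59 ± 0.33, 0.0581). Ptgs2 kept its call in 2 and Ace in all 8 of the fits without 1 CTRL sample. Of 18 abundant members with at least 10 CPM after sham, 7 were higher, against 6.31% of all such genes, and 2 abundant members were lower. Edn1, the vasoconstrictor endothelin-1, rose by 0.57 ± 0.19, its processing enzyme Ece1 by 0.45 ± 0.15, Entpd1 by 0.63 ± 0.14 and Pla2g4a by 0.31 ± 0.10, while Edn3 and Bche (−0.82 ± 0.15, adjusted p = 0.00314) fell. The endothelin receptor Ednra (0.94 ± 0.22) was called higher too, but had 7.81 CPM after sham and entered the fit through other groups. Nos3, the endothelial nitric oxide synthase, had 320 and 326 CPM and was not called.

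In iron handling and sterol metabolism 5 of 41 genes were called, all higher, where 0.183% of all genes tested were higher (median 0.00). Beside Ch25h, Apod, an apolipoprotein of lipocalin type, rose from 61.9 ± 5.88 to 252 ± 91.3 CPM (2.02 ± 0.27, adjusted p = 0.00106), the phosphatidate phosphatase Lpin3 from 5.96 ± 1.10 to 23.6 ± 8.29 CPM (1.99 ± 0.39, 0.0396), the endosomal ferrireductase Steap3 from 17 ± 1.75 to 45.9 ± 17.7 CPM (1.43 ± 0.28, 0.0398) and Acat3 from 0.658 ± 0.44 to 4.54 ± 2.45 CPM (2.75 ± 0.57, 0.0501). Steap3 kept its call in 6 and Lpin3 and Acat3 in 3 each of the 8 fits without 1 CTRL sample. Acat3 shares 571 of 2427 exon bases with Tcp1. Of 24 abundant members with at least 10 CPM after sham, 4 were higher, against 6.31% of all such genes, and 1 abundant member was lower. The ferritin heavy chain Fth1 rose among abundant genes, from 246 ± 19.4 to 710 ± 304 CPM (1.56 ± 0.23, adjusted p = 0.000682). Tfrc and Apoe (390 and 370 CPM) were not called. Glycolysis and hypoxia genes had none of 31 called over all genes (median 0.12), and among 23 abundant ones Gapdh (0.59 ± 0.15), Mif (0.57 ± 0.16) and Aldoa (0.40 ± 0.10) were higher and Ndrg1 (−0.35 ± 0.12) lower, with Pkm (323 and 359 CPM) not called. Of all abundant genes 6.83% were higher and 3.23% lower.

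Among YAP, TAZ, TEAD partners and their targets none of 26 was called over all genes (median 0.15). Yap1 had 112 and 106 CPM after sham and MCAo (−0.07 ± 0.22) and was not called in either fit. Wwtr1, which encodes TAZ, had 265 ± 9.66 and 329 ± 96.8 CPM and was higher among abundant genes (0.38 ± 0.12, adjusted p = 0.0764), as were Axl (0.76 ± 0.22) and Crim1 (0.43 ± 0.09), while Tgfb2 was lower. These were 3 and 1 of 19 abundant members, where 6.83% of all abundant genes were higher and 3.23% lower. Ptpn14 (261 and 292 CPM) and Amotl1 (282 and 257 CPM) were not called.

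The remaining called genes belonged to no list, and all rose. Their log2 fold changes were 2.72 for Pdlim1, 2.40 for Chst1, 2.11 for Tmem176a, 2.09 for Plekho1, 1.94 for Upp1, 1.92 for Disp2, 1.84 for Rgs16, 1.79 for Car13, 1.75 for Bst1, 1.71 for Ctla2a, 1.68 for Best1, 1.67 for Cpe, 1.66 for Plxnb2, 1.56 for Arhgap20, 1.47 for Cmah, 1.38 for Gmpr, 1.27 for Asap3 and 1.22 for Sh2b2. Their adjusted p by edgeR ran from 0.0022 (Rgs16 and Arhgap20) to 0.0997 (Car13 and Asap3). Of the 8 fits that left out a CTRL sample, Cmah was called in 0, Car13 and Asap3 in 1 each, Plxnb2 and Sh2b2 in 3 each, Plekho1, Upp1, Bst1 and Ctla2a in 4 each, Cpe in 5, Disp2 and Gmpr in 6 each, Best1 and Tmem176a in 7 each, and Pdlim1, Chst1, Rgs16 and Arhgap20 in all 8. The adjusted p rose to 0.417 for Cmah, 0.468 for Car13 and 0.491 for Asap3. The most abundant of them were Ctla2a, a cysteine protease inhibitor with close relatives in the genome (111 to 363 CPM), Cpe, carboxypeptidase E (59.4 to 189 CPM), and Plxnb2, a semaphorin receptor (30.8 to 97.6 CPM). Tmem176a overlaps Tmem176b over 81 bases, and Gmpr overlaps Atxn1 over 375 of 2323 bases. Among the larger changes, Selp shares 624 of 4413 exon bases with Gm16548 and Gm16587, Ch25h 159 of 1387 with Gm26902 and Vwa3a 626 of 7205 with Gm44661, so part of their counts is uncertain.

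The same surgery in YT-iKO mice, with 8 samples of their own, was compared with the response in CTRL. The difference of the responses was tested for all genes, and 0 genes (0%) were called by edgeR, DESeq2 or limma-voom, with 116 (0.373%) at an unadjusted p under 0.05 in edgeR. Uniform p-values would give 5%, so the test was conservative here and its 0 calls do not show that the responses were alike. The comparison of MCAo with sham in CTRL gave 1089 genes (3.5%) under 0.05, also below 5%, so a gene not called there is not shown to be unchanged. Of the 57 genes that rose in CTRL, 56 had a log2 fold change above 0 in YT-iKO and 37 were called there, and of the 10 that fell, all 10 were below 0 and 5 were called. Since these genes were chosen on their CTRL values, no count of them tests the difference. Unadjusted p-values of the difference were under 0.05 for 9 of the 67. Podn had a log2 fold change of 2.03 in CTRL and −0.21 in YT-iKO (difference −2.24 ± 0.50, adjusted p = 0.9999 by edgeR). Arhgap20 had 1.56 and 0.38, and Tnfsf8 had 3.15 and 1.27. Cmah, Grem1, Best1, Adamts8 and C4b were also smaller in YT-iKO, and Socs3 was larger (2.42 in CTRL, 3.74 in YT-iKO). None of these differences passed the adjustment over all genes in that fit. With the receptor-gene share as a covariate, an alternative added after seeing the data, Podn was the 1 gene called (difference −2.11 ± 0.33, adjusted p = 0.0178 by edgeR).

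**Figure D5:**
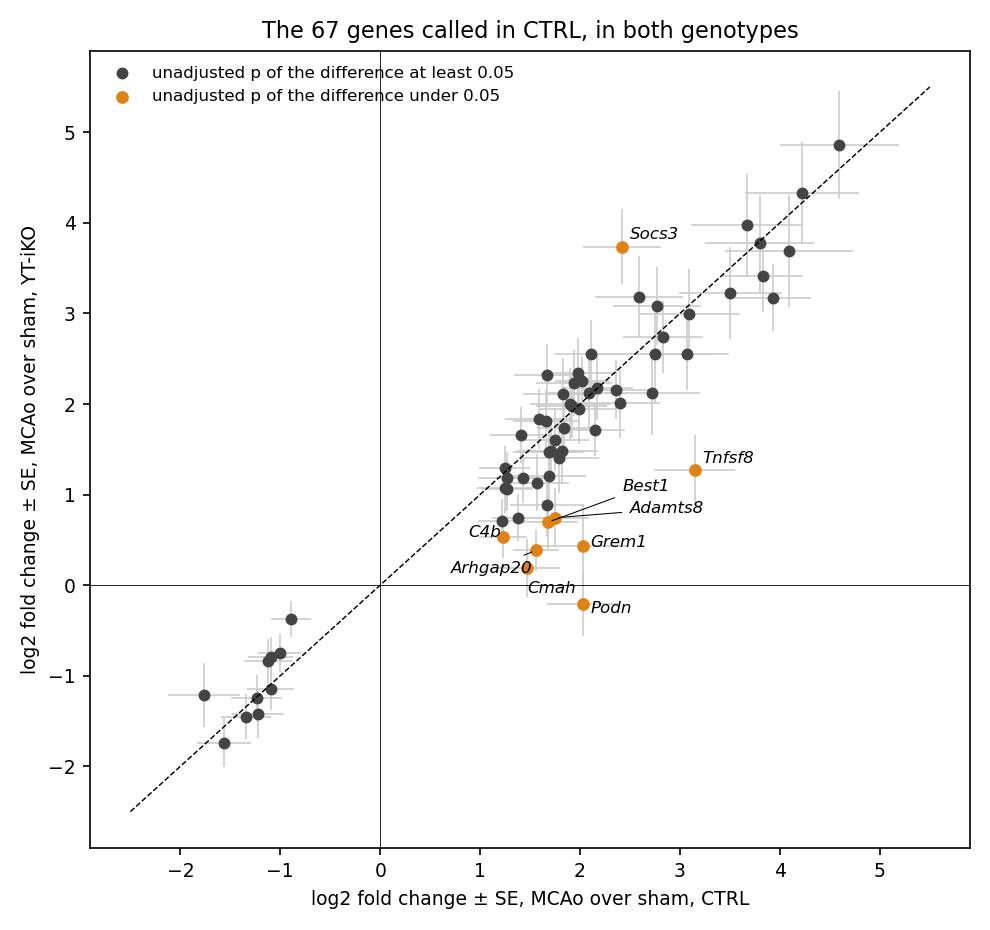
Log2 fold change ± SE of MCAo over sham in CTRL (horizontal axis) and YT-iKO bECs (vertical axis) for the 67 genes called in CTRL, with the line of equal change dashed and genes with an unadjusted p of the difference under 0.05 in orange. The genes were chosen on the CTRL axis. Podn lies at 2.03 in CTRL and −0.21 in YT-iKO, and Lrg1 lies at 4.59 and 4.86.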

How the data were processed

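RNA-seq of sorted bECs was available for 16 pools, 4 for each surgery (sham or MCAo) and genotype (CTRL or YT-iKO). The authors deposited raw counts per gene in 1 table. Reads had been aligned with STAR 2.7.8a to GRCm38 with GENCODE M12 gene models. The counting program and its strand setting are not given in the sources used here. Gene symbols came from the table, and promoter windows from RefSeq (GRCm38.p6). Reads carried no molecular identifiers that are stated.

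Counts were tested with edgeR 4.0.16 (R 4.3.3): filterByExpr (minimum count 10, minimum total 15), TMM factors, a quasi-likelihood fit of all 4 groups over the 16 samples, and Benjamini-Hochberg adjustment with adjusted p under 0.1. The authors used DESeq2 for their own comparisons. CPM are TMM-scaled. The genes named were all called genes, the 3 most abundant uncalled members of each list, and Yap1 and Wwtr1. Members of lists called in the fit of genes averaging 10 CPM or more were added after their values were seen. The genes and lists were chosen with earlier results of these data known. Alternatives were RLE factors, other filters and thresholds, DESeq2 1.42.0, limma 3.58.1 (voom with quality weights), the CTRL samples alone, a replicate block, the receptor-gene share as a covariate and leaving out each sample. The scripts were tested on simulated data. The deposited table held no column without a sample. A few genes and the results that need them are not reported here.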

Additional observations from a re-analysis of the deposited data

Results flagged for a closer look

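Of 48 groups of 4 samples examined among the genes described by sample, 2 held a sample that stood apart from the other 3 of its group by Dixon's test, where chance gives about 1 in 20. Cd14 had 2.56 CPM in CTRL sham 3 and 1.77 to 1.88 CPM in the other CTRL sham samples. Synpo had 27.4 CPM in CTRL sham 4 and 17.5 to 18.7 CPM in the other CTRL sham samples. Both values lay below all CTRL MCAo samples of the same gene.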

How the results depend on the processing

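The 57 higher and 10 lower genes became 623 and 295 among genes of at least 10 CPM, 387 and 236 with the CTRL samples alone, 541 and 275 with the receptor-gene share as a covariate, 175 and 47 with DESeq2, 3504 and 4034 with limma-voom, and 100 and 21 with a filter of CPM above 1 in 4 samples; at adjusted p under 0.05, 4 genes were lower. The cause of these differences was not tested. Leaving out each of the 16 samples in turn gave 25 to 138 higher and 0 to 24 lower genes. All 67 genes were called with the covariate, DESeq2, RLE factors, limma-voom and the CTRL samples alone, and 66 without a filter. Among genes of at least 10 CPM, with alternatives chosen after seeing the data, the CTRL samples alone gave 936 higher and 683 lower genes, DESeq2 450 lower, an adjusted p under 0.05 173 lower, and leaving out each sample 389 to 722 higher and 145 to 443 lower. Without CTRL MCAo 1, CTRL MCAo 4, CTRL sham 1, CTRL sham 2 and CTRL sham 3, the lower genes of this fit numbered 145, 176, 167, 168 and 184. The difference between YT-iKO and CTRL gave 0 genes with DESeq2, limma-voom, the replicate block and each of the 16 samples left out, and 1 (Podn) with the covariate.

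The replicate numbers were not taken as pairs: same-numbered samples correlated at 0.1871, 0.2254, 0.4525 and −0.2872. Numbers 1 to 3 correlated best with their own number and number 4 did not, a hint from the data and not the design. With the replicate block 103 genes were higher and 16 lower, and 66 of the 67 genes kept their call. For single genes and list members, 3860 alternative values kept their direction and their side of the threshold or moved by less than the replicate spread, 258 lost and 101 gained a call, 109 moved, and none changed direction. With 1 count at 0.0569 to 0.0776 CPM, genes near 1 CPM rest on few counts.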
